A study of Mus musculus with 12 samples.

Results

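Hmga2 was examined as a source of RNA that was recovered with the chromatin protein HP1γ. The span used runs from 119.795 to 119.92 Mb on chromosome 10 of mouse build mm9, which was given as the extent of the gene, and every region of either deposited list that overlapped it was taken as a member. It held 31 of the 10013 regions of the untreated list and 3 of the 2609 regions of the list made after PMA. The locus was chosen by its numbers of regions in these lists, fewer after PMA, so the numbers, widths, folds and replicate support that follow are a description of that choice and carry no test.

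The 12 libraries came from mouse embryonic fibroblast-derived cells with a knock-out of HP1γ (Cbx3) in which HP1γ expression had been restored, and every group shares that genotype. They form 4 groups of 3 biological replicates: RNA of the chromatin input and RNA immunoprecipitated with HP1γ (IP), from untreated cells and from cells given PMA, a phorbol ester that activates protein kinase C, at 100 nM in DMSO for 30 min. The labels do not mention a DMSO-only control, and no IP from cells without HP1γ was analysed here, so RNA held by HP1γ and RNA carried along unspecifically cannot be told apart. Each list gives 1 value per joined region and none per library, so read depth is unknown and no region has a replicate error. Neither list states strand or expression, and the cell type could not be checked against marker genes.

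Hmga2 encodes a small chromatin protein that binds the minor groove of AT-rich DNA through its AT-hooks and bends or opens chromatin for other factors. It is abundant in embryonic and mesenchymal cells, is largely silenced in adult tissues partly through let-7 microRNAs, and its loss gives the pygmy mouse. HP1γ is a chromodomain reader of methylated histone H3 that is found both in heterochromatin and over the bodies of transcribed genes. Most of the length of Hmga2 is intron. RefSeq places the gene on the minus strand, so transcription runs toward lower coordinates. The high-coordinate end of the span is called the start side here. Without an mm9 annotation the transcription start was not placed, so distances are from the end of the span and not from that start. In the RefSeq table of GRCm38.p6, 5 other genes (1700006J14Rik, Gm40783, 9230105E05Rik, Mir763 and Gm51785) lie within the bounds of Hmga2. That table is of another build than the lists, so no region was assigned to an exon, an intron or a nested gene, and RNA of a nested gene cannot be told apart from RNA of Hmga2.

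In untreated cells, regions of HP1γ-enriched RNA were found along most of Hmga2. The 31 regions covered 47.9% of the span, and the 3 PMA regions covered 4.14%. Summed region length was 59896 bp untreated and 5175 bp after PMA, against 5925968 bp and 2285622 bp over the whole lists. The PMA list holds peaks of only 2 replicates, against 3 in the untreated list, so the lists were not made alike. The untreated regions reached from the low-coordinate edge of the span to 11.8 kb from the start-side end, with gaps of 70 to 9236 bp between neighbours and a median gap of 834 bp. Of the 30 gaps, 16 were shorter than 1 kb. The PMA regions were centred 113, 98.5 and 78.4 kb from the start-side end, and none lay closer to it than 75 kb.

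**Figure D1:**
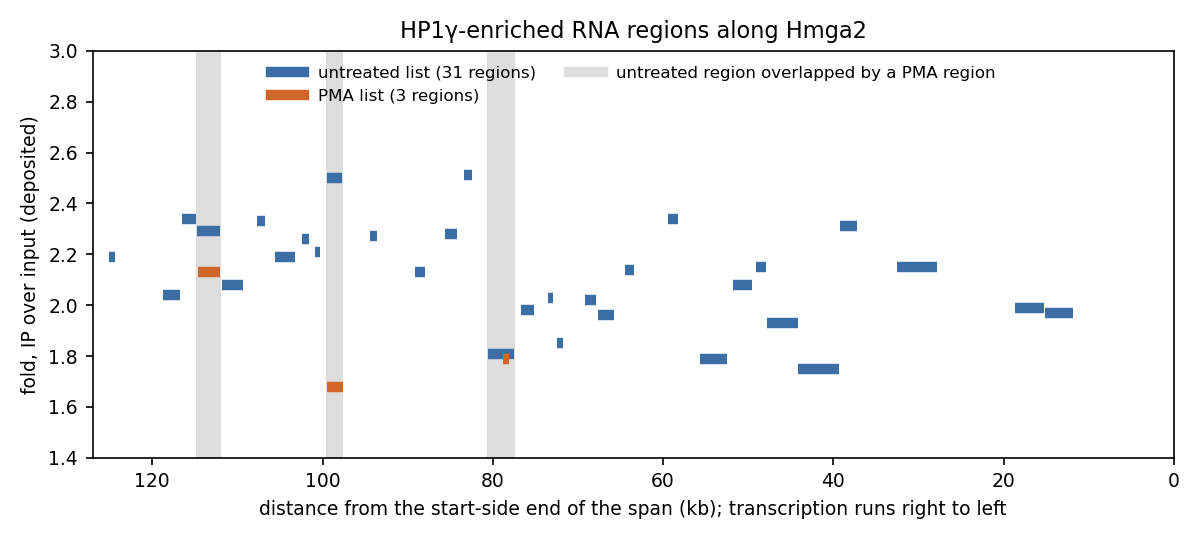
Regions of the untreated list (blue) and of the PMA list (orange) along the Hmga2 span. The x axis gives the distance from the start-side end in kb, the y axis the deposited fold of IP over input, and the length of a bar the width of a region. Grey bands mark the 3 untreated regions that a PMA region overlapped. All 3 lie more than 75 kb from the start-side end.

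Divided into 5 parts of 25 kb, the span held 2 untreated regions in the part nearest the start side, then 5, 8, 7 and 9 in the part farthest from it. The PMA regions numbered 0, 0, 0, 2 and 1 in the same order. Regions near the start side were fewer but wider. Their median width was 3386 bp in the nearest part and 3567 bp in the next, against 1218, 1322 and 1636 bp in the other 3. The nearest 11.8 kb, at the start-side edge, held no region of either list.

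The lists differed in length over the whole genome as well, at 26.1 PMA regions per 100 untreated regions. At Hmga2 there were 9.68 per 100. To place this among other loci, the genome was cut into tiles as long as the span on a grid of which Hmga2 is 1 tile. By untreated regions, Hmga2 ranked 2 of the 3761 tiles with any region, behind a tile with 42. Among the 132 other tiles with at least 10 untreated regions, the median was 27.6 PMA regions per 100 untreated, and the values went from 0 to 81.8. In 11 of these (8.33%) the value was at or below that of Hmga2, and 8 of them held no PMA region. This grid keeps Hmga2 whole and may cut other groups of regions. On a grid that starts at position 1 of each chromosome, with the Hmga2 span kept as it is, Hmga2 ranked 3 by untreated regions, the fullest tile held 36, and 8 of 141 other tiles (5.67%) were at or below the value of Hmga2. The 3 tiles nearest to Hmga2 by their pair of region numbers lay on chromosome 15 (63920000 to 64044999), with 30 untreated and 5 PMA regions, on chromosome 14 (69920000 to 70044999), with 30 and 8, and on chromosome 17 (3420000 to 3544999), with 25 and 4. Their untreated regions had median folds of 2.90, 2.66 and 3.08 and median widths of 617, 680 and 601 bp, so in these tiles regions were narrower and folds higher than at Hmga2.

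**Figure D2:**
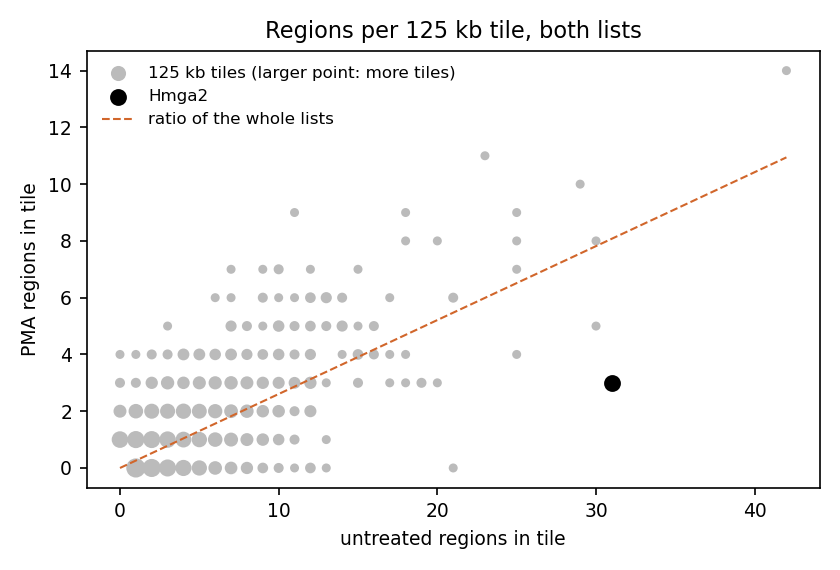
Number of untreated (x axis) and PMA (y axis) regions in each tile of the genome, all as long as the Hmga2 span. Grey points are tiles, drawn larger where more tiles share a pair of numbers, the black point is Hmga2 (31 and 3) and the dashed line is the ratio of the whole lists, 26.1 per 100. Hmga2 lies below that line.

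The untreated regions at Hmga2 were wide and of low fold. Fold is the ratio of IP over input that the authors deposited for each region, read as a mean over the peaks joined in it. At Hmga2 it had a median of 2.14 (95% interval of the median 2.02 to 2.26) and went from 1.75 to 2.51, while the whole untreated list had a median of 3.65. All 31 regions fell in the lowest 10% of the list by fold, at or under 2.62 (background 10.0%), and the best of them ranked 9278 by fold. Their median width was 1636 bp (1163 to 2369), against 528 bp in the list. Of the 31, 25 belonged to the widest 10% of the list, at 912 bp or more (background 10.0%). These 25 were also 25 of the 134 regions in the whole list that were both that wide and that low in fold (background 1.34%). The widest, at chr10:119875904-119880637, measured 4734 bp and ranked 5 in the whole list by width.

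Low fold did not go with weak statistical support from the peak caller. The deposited −log10 q had a median of 6.80 at Hmga2 and 3.59 in the list, and 30 of the 31 regions lay above the list median. The highest −log10 q at the locus was 11.3. Within the locus, wider regions tended to have lower folds (Spearman rho = −0.411 over the 31 regions), whereas over all 10013 untreated regions rho was 0.0459. Between width and −log10 q, rho was 0.217 at the locus and 0.263 over all untreated regions. Whether −log10 q at Hmga2 differed from that of equally wide regions was not tested. These correlations are descriptions across regions that share libraries, and neighbouring regions are not independent.

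**Figure D3:**
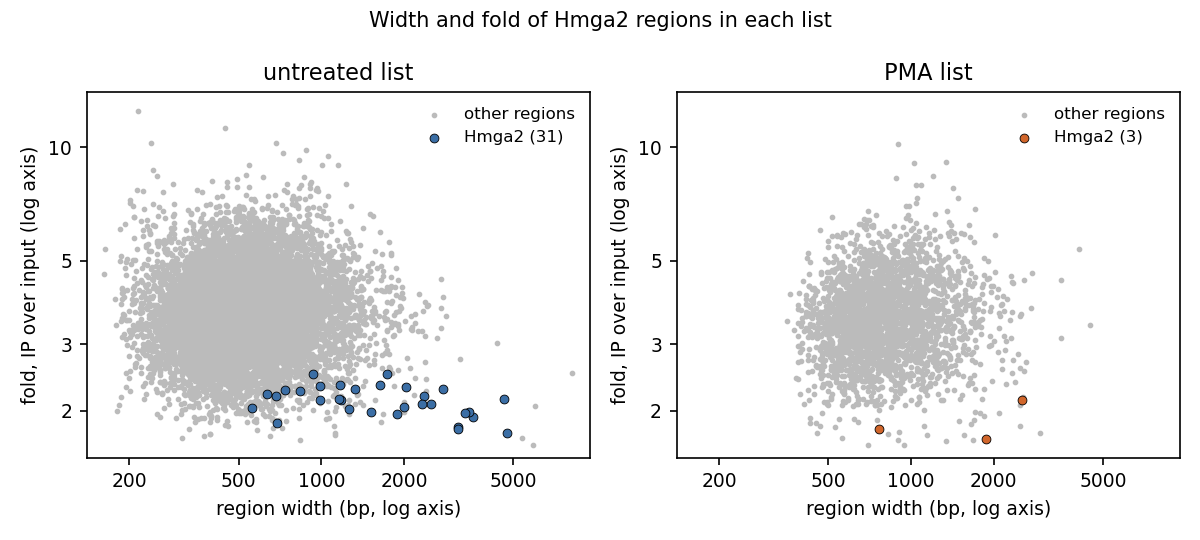
Width (x axis, bp, log axis) against deposited fold of IP over input (y axis, log axis) for every region of the untreated list (left) and of the PMA list (right). Grey points are other regions and coloured points are Hmga2 regions. The 31 untreated points lie along the lower edge of the cloud, between 1.75 and 2.51, and the 3 PMA points between 1.68 and 2.13.

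The 5 untreated regions with the highest fold at Hmga2 lay 58.9 to 116 kb from the start-side end. The first, chr10:119836609-119837545, was 937 bp wide with a fold of 2.51, and had 1 member peak from each replicate. It was followed by chr10:119820513-119822250, 1738 bp wide with a fold of 2.50. Next came chr10:119860539-119861707, 1169 bp, at 2.34, which had no member peak of replicate 3. The other members of this group were chr10:119803463-119805098, 1636 bp, also at 2.34, and chr10:119812311-119813298, 988 bp, at 2.33. Of these 5, only the region at 2.50 had a PMA region over it. The folds of all 31 regions lie within 0.76 of each other, so the order among neighbours rests on small differences for which no replicate error is known.

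All 3 PMA regions lay on untreated regions (100% of 3, exact 95% interval 29.2% to 100%, against 54.8% of the whole PMA list). Untreated regions covered 47.9% of the span, so the share over the whole list is not a like background. With lists of equal length, 26 untreated regions were counted at Hmga2, and 66.7% of the PMA regions overlapped them. In the other direction, 3 of the 31 untreated regions were overlapped by a PMA region, or 9.68% (2.04% to 25.8%, counting error only), against 15.5% of the whole untreated list. The first PMA region, chr10:119805405-119807938, was 2534 bp wide and lay wholly within an untreated region of 2770 bp. Its fold was 2.13, and that of the untreated region was 2.29. Their −log10 q values were 8.15 and 8.31, so this stretch had nearly the same values in both lists. The second PMA region, chr10:119820579-119822456, shared 1672 bp with the untreated region of fold 2.50 and had a fold of 1.68. Its −log10 q was 3.67 against 11.2. This pair differed most. The last PMA region, chr10:119841196-119841958, was 763 bp wide and lay within an untreated region of 3135 bp, chr10:119839397-119842531. The folds were 1.79 and 1.81, and the −log10 q values 5.46 and 5.07. In each of the 3 pairs the PMA fold was the lower value, by 0.02 to 0.82, and with 1 value per list no pair could be tested. Over the whole lists the median fold was lower after PMA too, at 3.50 against 3.65 untreated. Folds of overlapping pairs elsewhere in the genome were not compared. The PMA regions were, like the untreated ones, all in the lowest 10% of their own list by fold (at or under 2.55, background 10.0%), and 2 of the 3 were in its widest 10% (background 10.0%).

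Replicate support differed along the gene. A region lists the peaks joined in it by replicate and number, and no region of either list has fewer than 3. All 31 untreated regions had member peaks of replicates 1 and 2 (background 98.7% and 97.5%). Only 23 had a member peak of replicate 3 (background 95.6%). Thus 74.2% (55.4% to 88.1%) had a member of each replicate, against 91.9% of the whole list. From the part nearest the start side to the farthest, replicate 3 supported 1 of 2, 2 of 5, 7 of 8, 4 of 7 and 9 of 9 regions. Replicate 2 more often had several peaks in a region. It had 2 or more in 20 of the 31 regions (background 11.7%), against 8 for replicate 3 (background 8.18%) and 2 for replicate 1 (background 18.3%). In sum, the untreated regions held 33 member peaks of replicate 1, 64 of replicate 2 and 34 of replicate 3. The 3 PMA regions held 8 member peaks of PMA replicate 2, 3 of PMA replicate 3 and none of PMA replicate 1, which has no member peak anywhere in the PMA list. With 2 replicates and at least 3 member peaks, a place with 1 peak in each PMA replicate would be missing from that list. Exactly 1 member peak per replicate was found in 9 of the 31 untreated regions (7003 of the 10013 in the list). How far this goes with the difference in region numbers was not tested.

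**Figure D4:**
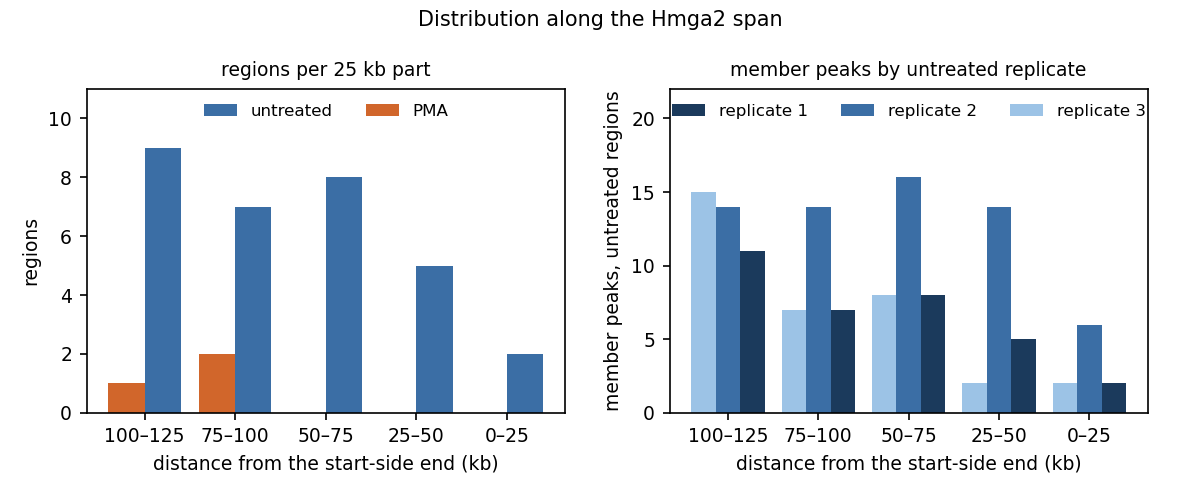
Regions of each list (left) and member peaks of the untreated regions by replicate (right) in the 5 parts of 25 kb of the span. The x axis gives the distance from the start-side end in kb, with the start side on the right. PMA regions fall only in the parts beyond 75 kb, and member peaks of untreated replicate 3 number 2 in each of the 2 parts nearest the start side.

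Since the lists were joined from 3 untreated and 2 PMA replicates, the locus was also counted in untreated lists reduced to 2 replicates, in which a region still had to hold 3 member peaks. Without replicate 1, 15 untreated regions remained at Hmga2, and 10 remained without replicate 2 and 21 without replicate 3. Of these, 7, 2 and 11 lay from chr10:119843290 to the last untreated region. That stretch held 16 regions in the full untreated list and no PMA region. Its untreated regions thus rested largely on peaks of replicate 2. Over the whole list 15.0%, 19.9% and 23.6% of untreated regions remained. The 3 PMA regions at Hmga2 then stood at 20.0, 30.0 and 14.3 per 100 untreated regions, a direction for which the locus had been chosen. The whole PMA list stood at 173, 131 and 110 per 100 regions of these lists, so it was longer than each of them. Of the 31 regions, 8 remained in all 3 reduced lists, among them the 3 with a PMA partner. In the PMA list, 2 of the 3 regions remained without replicate 3 (4.64% of the whole list) and 0 without replicate 2 (2.76%). The regions keep bounds and folds that were joined over all 3 replicates.

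The peaks of single replicates can be counted only through their numbers. Within each replicate, member peaks carry numbers that rise along the genome without exception in either list, so the numbers passed over between regions are read here as peaks that were called but not joined. The sources do not state the numbering scheme or whether peaks were filtered before or after it, so every count of numbered peaks that follows, with its shares and its values per 10000, rests on that reading. From the first to the last PMA region, a stretch of 36.6 kb, PMA replicate 2 had 20 numbered peaks, of which 8 were joined, and PMA replicate 3 had 32, of which 3 were joined. The untreated regions over the same stretch, 12 in number, spanned 30 numbered peaks of replicate 1, 24 of replicate 2 and 18 of replicate 3. Of these, 13, 21 and 17 were joined. The untreated replicates (18 to 30) and the PMA replicates (20 and 32) therefore overlapped in numbered peaks, although the stretch held 12 untreated and 3 PMA regions. Per 10000 peaks of a replicate, with the highest number in the list as its total, the values were 3.43, 5.89 and 5.38 untreated and 4.04 and 3.47 after PMA, which overlap too. The share of numbered peaks that was joined ranged from 43.3% to 94.4% untreated, and was 40.0% and 9.38% after PMA. Over the whole lists it was 13.6%, 27.1% and 31.3% untreated and 8.85% and 4.34% after PMA, so each replicate had a larger share of its peaks joined in this stretch, which was drawn to begin and end at joined peaks, than over its whole list. Between the first and second PMA regions, 6 peaks of PMA replicate 2 and 11 of PMA replicate 3 were passed over, where the untreated list had 5 regions. Between the second and the last, 6 and 18 were passed over, where it had 4. Numbers alone give neither the position nor the height of these peaks, nor whether peaks of the PMA replicates met each other. The stretch begins and ends at PMA regions, which fixes at least 3 places in it where both PMA replicates had a peak.

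Toward the start side the peak numbers say less. The 16 untreated regions from chr10:119843290 to the last one, a stretch of 64.9 kb, spanned 36, 46 and 12 numbered peaks of replicates 1, 2 and 3. The PMA list had no region there, and its next region began 884 kb beyond the span. In the 962 kb between them, at most 37 numbered peaks of PMA replicate 2 and 143 of PMA replicate 3 lay, and how many of them lay in Hmga2 cannot be read from the list. For PMA replicate 2 the limit of 37 is below the 46 of untreated replicate 2 but above the 36 and 12 of the other two. That sets an upper limit against counts from the first to the last member peak. The like limits over the same 962 kb were 123, 66 and 42 for untreated replicates 1, 2 and 3. An untreated region, chr10:119839397-119842531, crosses the low-coordinate edge of that stretch, so its 1, 4 and 3 member peaks may not all be counted. These limits lie above 37 and below 143. All are raw numbers, not scaled to the peaks of a replicate, and no pairing of replicates across conditions is stated.

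**Figure D5:**
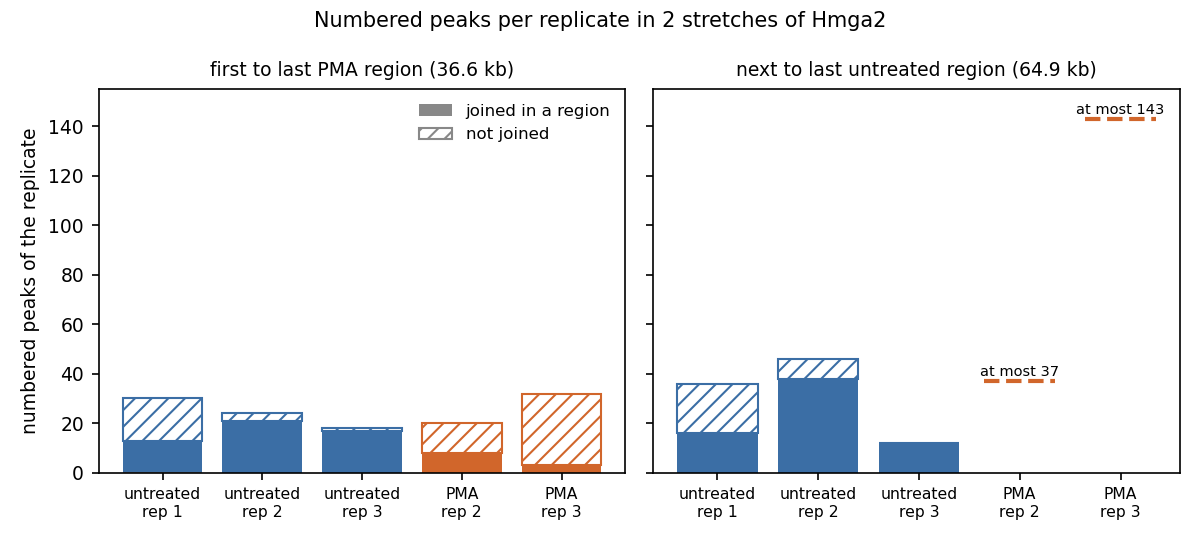
Numbered peaks of each replicate from the first to the last PMA region (left) and from the next to the last untreated region toward the start side (right). Filled bars are peaks joined in a region, hatched bars peaks passed over, and dashed lines the most peaks a PMA replicate can have had there. On the left the PMA replicates (20 and 32) fall among or above the untreated ones (18 to 30). Joined shares there were 40.0% and 9.38% for PMA replicates 2 and 3. For untreated replicates 1, 2 and 3 they were 43.3%, 87.5% and 94.4%.

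At the edges of the span, the outermost untreated region began 33 bp before the low-coordinate bound, at chr10:119794967-119795651, with a fold of 2.19. The nearest region left out, chr10:119791845-119792300, lay 2.70 kb away with a fold of 2.56. On the start side the next untreated region lay 235 kb beyond the span, with a fold of 3.78. In the PMA list the nearest regions outside lay 264 kb and 884 kb from the span, with folds of 4.94 and 3.51. The low-fold regions thus reached the low-coordinate edge, while on the start side neither list had a region between the last untreated one and 235 kb beyond the span.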

How the data were processed

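RNAchIP-seq libraries of input and HP1γ IP were compared by the submitters, whose processing notes name MACS2 2.1.0, STAR 2.5.0a, cutadapt 1.11 and the build mm9 without roles; how peaks were called and filtered is not given in the sources used here. For each condition the authors deposited 1 region list with the fold (a ratio of IP over input), −log10 q and a score for each region joined from at least 3 peaks of single replicates. The score was not analysed. Depth is unknown.

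Regions overlapping the span by at least 1 bp were counted in pandas 2.3.3 under Python 3.11.15 (intervals from scipy 1.17.1) and drawn in matplotlib 3.10.9. Starts are printed 1-based. Intervals at 95% are Clopper-Pearson (exact) for shares and order-statistic for medians of the untreated regions, for counting error only. Tiles were as long as the span, and those given are the 3 nearest by Euclidean distance in region numbers. Regions named are those of the PMA list, their partners and the 5 highest untreated by fold, with the widest and outermost added after values were seen. Peak numbers were read as a count along the genome within a replicate; whether peaks were filtered before or after numbering is not stated. Genes of the let-7 pathway were not counted, for want of an mm9 annotation, and no sequence of a region was read. The locus, tests and lists were chosen with earlier results of these data known.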

Additional observations from a re-analysis of the deposited data

How the results depend on the processing

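Of 107 alternative values for 17 results, 91 stayed within the interval of the reported value or, for counts, within 1.5 times of it. A change of direction was defined only for the ratio of PMA to untreated regions. The other results could only stay or move. PMA regions were fewer than untreated regions at Hmga2 in all 10 alternatives run for that ratio, at 0 to 30.0 per 100. The locus was chosen for having fewer PMA regions, so this direction is no support for it. Leaving out PMA replicate 2 or 3 also kept only 2.76% or 4.64% of the whole PMA list, so a lower ratio was bound to follow there. Leaving out 1 untreated replicate left 10 to 21 untreated regions, of which 14.3% to 30.0% had a PMA partner and 86.7% to 100% had members of both replicates kept. Leaving out PMA replicate 2 or 3 left 0 and 2 PMA regions, or 0 and 6.45 per 100 untreated, and 0% and 6.45% of untreated regions with a partner. These values follow from the requirement of 3 member peaks, since each PMA region at Hmga2 holds 1 peak of replicate 3, and all 3 regions rest on peaks of both replicates. Merging regions within 1 kb gave 15 untreated regions of median width 3124 bp. A limit of 3 on −log10 q removed no region at the locus, so the values under that setting could not move. Between the nearest regions outside the span, at most 126 peaks of untreated replicate 1, 69 of PMA replicate 2 and 203 of PMA replicate 3 were numbered, against at least 73, 20 and 32 inside it. The stretch bounded by PMA regions, chosen after seeing the data, held 30, 24 and 18 peaks of untreated replicates 1, 2 and 3, against at least 73, 75 and 36 in the whole span. No paired analysis was possible because the lists hold no values per library.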
